A study of Mus musculus with 4 samples.

Results

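The genes described here encode the mitochondrial ATP synthase, the carriers that feed and unload it across the inner membrane, and the uncoupling proteins. They were taken by gene symbol: names beginning with Atp5, the numbered Slc25a carriers, Ucp1 to Ucp3, the pyruvate carrier genes Mpc1 and Mpc2, and the inhibitor gene Atpif1, leaving out pseudogene names. That gave 70 of the 49997 genes in the deposited tables. They comprise 17 ATP synthase subunits, 1 inhibitor, 3 adenine nucleotide carriers, 6 uncoupling proteins or relatives, and 43 other carriers, of which 40 are numbered Slc25a genes besides Slc25a3, the phosphate carrier, and the Mpc pair. Slc25a17 and Slc25a46 belong to the carrier family but reside in the peroxisomal and the outer mitochondrial membrane, and they were kept because the choice was made by name.

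The tissue was the AGM (aorta, gonad and mesonephros), the embryonic site where blood stem cells arise. It was taken from C57BL/6J mouse embryos and held as explants on filters at the gas-liquid interface in MyeloCult medium with hydrocortisone for 48 hours. Bulk poly(A) RNA was sequenced from 2 untreated explant libraries and from 2 libraries of explants exposed to 5 µM CCCP for 48 hours. The labels differ on the stage, since the growth protocol lists both E10.5 and E11.5 and the design text E10.5 alone, and on the material, since the cell type is given as embryonic stem cells of blood and the extracted RNA as that of explants. They do not say whether libraries of a group came from separate embryos, so p-values measure only the spread between these libraries, which may be technical.

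ATP synthase uses the proton gradient built by the respiratory chain to make ATP: protons pass through a ring of c subunits in the membrane, which turns the central stalk inside the catalytic F1 head, while a peripheral stalk holds the head still. Adenine nucleotide carriers exchange the ATP for cytosolic ADP and the phosphate carrier brings in phosphate. CCCP is a chemical protonophore that lets protons re-enter without passing the synthase, a leak that Ucp1 makes in brown fat, and when the gradient collapses the synthase can run backwards and hydrolyse ATP, a reaction that Atpif1 inhibits.

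Promoter sequences are shown because factors known to act on nuclear genes of oxidative phosphorylation (NRF1, ETS factors such as GABP, the ERR nuclear receptors and YY1) have short recognition motifs that can be looked up. Windows from 250 bases before to 50 bases after a gene's start were taken from RefSeq on GRCm38.p6, and 57 of the 70 genes had at least 1. The lines below give the window of the e subunit gene Atp5k (chr5:108434350-108434649, minus strand), which held 3 of the 4 motifs, the d subunit gene Atp5h (chr11:115419870-115420169, minus strand), which held 2, the carrier gene Slc25a4 (chr8:46211013-46211312, minus strand), which held 1, and Slc25a36 (chr9:97110992-97111291, minus strand), a carrier gene that was lower with CCCP and held none. No motif was found for 5 of the 15 subunit genes with a window (Atp5b, Atp5d, Atp5g1, Atp5j2 and Atp5pb), nor for Slc25a5. All of these had positive log2 fold changes, and a link between motifs and direction was not tested. Each printed window runs 5′ to 3′ on the gene's strand, and capitals mark a motif.
Atp5k: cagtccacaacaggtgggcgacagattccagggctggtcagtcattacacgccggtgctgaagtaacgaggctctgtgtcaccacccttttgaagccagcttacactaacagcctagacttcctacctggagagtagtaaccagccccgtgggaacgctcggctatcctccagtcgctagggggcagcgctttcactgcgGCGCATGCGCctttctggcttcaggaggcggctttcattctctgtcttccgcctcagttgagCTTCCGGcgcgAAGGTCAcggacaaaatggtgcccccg
Atp5h: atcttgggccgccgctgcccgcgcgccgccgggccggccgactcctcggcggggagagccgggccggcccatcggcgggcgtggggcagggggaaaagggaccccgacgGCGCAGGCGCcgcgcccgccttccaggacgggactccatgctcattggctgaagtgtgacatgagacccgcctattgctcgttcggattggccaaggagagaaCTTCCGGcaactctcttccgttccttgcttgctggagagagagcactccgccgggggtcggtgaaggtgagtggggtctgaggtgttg
Slc25a4: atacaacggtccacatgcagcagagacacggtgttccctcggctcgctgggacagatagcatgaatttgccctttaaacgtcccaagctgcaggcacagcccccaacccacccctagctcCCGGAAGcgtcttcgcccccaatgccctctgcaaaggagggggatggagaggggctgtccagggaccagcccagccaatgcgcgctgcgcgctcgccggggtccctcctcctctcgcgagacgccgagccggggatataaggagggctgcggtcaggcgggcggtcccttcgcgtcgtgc
Slc25a36: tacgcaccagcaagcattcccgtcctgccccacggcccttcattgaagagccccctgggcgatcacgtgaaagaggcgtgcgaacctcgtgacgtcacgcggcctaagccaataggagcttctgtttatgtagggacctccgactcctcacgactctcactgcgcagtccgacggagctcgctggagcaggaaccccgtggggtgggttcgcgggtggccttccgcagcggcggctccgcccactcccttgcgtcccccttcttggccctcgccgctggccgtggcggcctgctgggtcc

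The motifs searched, on both strands, were GCGCA and GCGC with any base between them for NRF1, CCGGAAG for ETS factors, AAGGTCA for ERR, and AANATGG directly followed by CGGC for YY1. They do not overlap each other in the windows printed. In Atp5k the capitals are, in order, an NRF1 motif upstream of the start and then an ETS motif on the other strand and an ERR motif, both downstream of it. Atp5h held an NRF1 and an ETS motif, and Slc25a4 an ETS motif. Among the 18 windows of 15 synthase subunit genes, 6 held the NRF1 motif, a share of 33.3% against 4.6% of all 32851 windows. The ETS motif was in 6 of the 18 (33.3%, against 8.86% of all windows), the ERR motif in 4 (22.2%, against 4.72%) and the YY1 motif in none (against 0.986%). Of the 42 windows of other carriers, 1 held the NRF1 motif (2.38%), 7 the ETS motif (16.7%), 1 the ERR motif (2.38%) and none the YY1 motif. The 7 windows of the uncoupling genes came from 5 genes and held none of the 4 motifs, and Slc25a27 had no window. The windows of these genes are richer in G and C than most, with a median of 59.0% against 52.7% over all windows, and the shares were not corrected for this. A match is a description of these letters and not a bound site.

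The libraries held 37360968 to 48827826 counted reads. A level is given as CPM, the count scaled to library size with TMM, and a difference as the log2 fold change of CCCP over untreated with its standard error (SE) from edgeR's quasi-likelihood test, 2 libraries against 2. Of the 70 genes, 64 passed the filter on low counts and were tested among 19837. Over all genes tested edgeR called none at an adjusted p under 0.05 (0%), so none of the 64 was called either. The AGM label was checked against marker genes. Blood stem cell and endothelial markers had a summed CPM of 433 to 569 over 8 genes, including Kit (47.6 to 63.2) and Runx1 (8.88 to 20.1). Cdh5 was the highest of the 8 (134 to 177), and Gfi1 was low (0.107 to 0.247) and not tested. Of the 7 tested, 0 had a positive log2 fold change (49.2% of all genes). In 2 of them, Ptprc and Kdr, both CCCP libraries lay below both untreated ones (24.8% of all genes). Ptprc had 6.85 and 6.82 untreated and 3.65 and 3.39 with CCCP. Markers of red cells (2367 to 4441), neural cells (659 to 818) and skeletal muscle (286 to 384) were present too, so the libraries hold mixed tissue. All 10 hepatic markers were lower in both CCCP libraries (24.8% of all genes tested), with summed CPM of 1722 and 986 untreated and 50.9 and 106 with CCCP. In mixed tissue, fewer cells of a type and less RNA per cell cannot be told apart, and the part of cell composition in the results below was not tested.

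At an unadjusted p under 0.05, 13 of the 64 genes were higher with CCCP, where 5.45% of all genes tested were, and 2 were lower, where 9.16% were. With DESeq2 as the alternative test, 2 of the 64 were called lower (2.99% of all genes) and none higher (0.329% of all genes). These 2 were Slc25a36 and Slc25a27. In 35 of the 64 genes both CCCP libraries lay above both untreated ones, against 24% of all genes tested, and in 8 both lay below, against 24.8%. The median log2 fold change was 0.26 over the 64 genes and -0.01 over all genes tested, and the count of positive values was 49 of 64 against 49.2% of all genes.

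**Figure D1:**
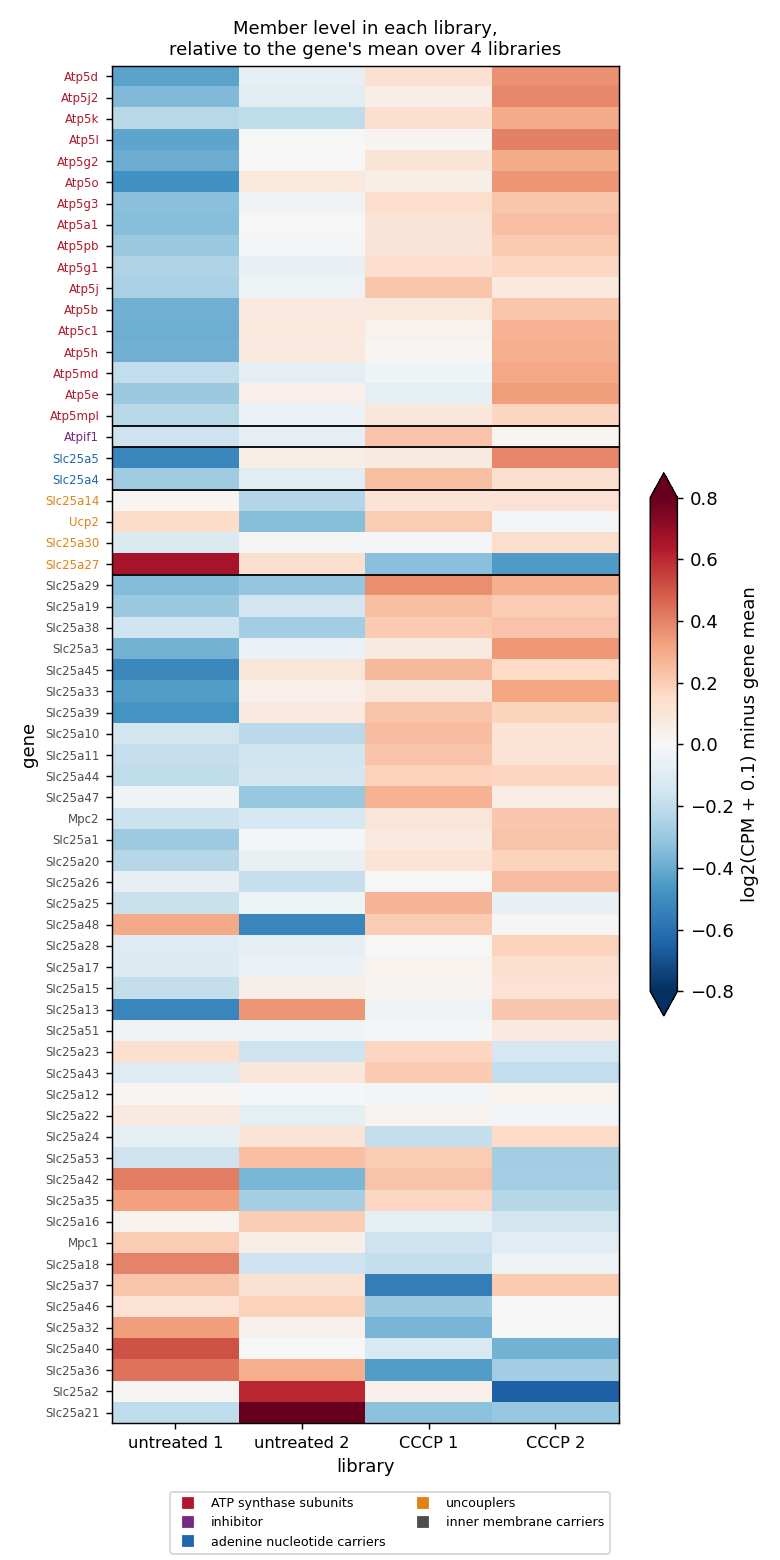
Level of each tested gene in each library (columns), as log2(CPM + 0.1) minus the gene's mean over the 4 libraries; red is above and blue below that mean, and symbol colours give the group. The 17 synthase subunits at the top are lowest in untreated 1 and, but for 1 subunit, highest in CCCP 2, while the carriers at the bottom hold genes that go either way.

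All 17 ATP synthase subunits had a positive log2 fold change, from 0.26 to 0.49 with a median of 0.31. In 13 of them both CCCP libraries lay above both untreated ones (24% of all genes tested) and in the other 4 the groups overlapped. At an unadjusted edgeR p under 0.05, 5 of the 17 were higher (5.45% of all genes) and none lower (9.16%), and edgeR adjusted p-values ran from 0.242 to 0.532. The summed CPM of the 17 genes was 2704 and 3516 in untreated 1 and 2, and 3679 and 4129 in CCCP 1 and 2. The untreated libraries thus differed from each other by more than untreated 2 did from CCCP 1.

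The catalytic β subunit gene Atp5b stood at a CPM of 764 and 1054 in the untreated libraries and 1061 and 1167 with CCCP. Untreated 2 and CCCP 1 were almost level, and untreated 1 stood apart below the other libraries. Its log2 fold change was 0.29 (SE 0.194, edgeR adjusted p = 0.509). The α subunit gene Atp5a1, whose product alternates with β around the head, had 691 and 875 untreated and 940.5 and 1032 with CCCP, without overlap. Its log2 fold change was 0.33 (SE 0.169, adjusted p = 0.412). The γ subunit gene Atp5c1, the shaft that turns inside the head, had 137 and 190.4 untreated and 183 and 218 with CCCP. Here untreated 2 lay above CCCP 1, as it did for the ε subunit gene Atp5e with 63.6 and 80.1 against 73.9 and 98.5. The δ subunit gene Atp5d, a part of the central stalk, had 84.5 and 109 untreated and 124 and 147 with CCCP, without overlap. Its log2 fold change of 0.49 was the highest of the 17 (SE 0.166, adjusted p = 0.289), and without a filter on low counts edgeR called it higher (0.673% of all genes then tested), beside Slc25a27 and Slc25a36 lower (2.76%).

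The c subunit of the ring is encoded by 3 genes whose mature proteins are the same and whose import sequences differ. Atp5g1 had a CPM of 37.1 and 42.1 untreated and 48.3 and 49.4 with CCCP, Atp5g2 had 78.3 and 103 against 111 and 127, and Atp5g3 had 160.4 and 198 against 223 and 236. In all 3 both CCCP libraries lay above both untreated ones (24% of all genes tested). Their log2 fold changes were 0.30, 0.39 and 0.36, with adjusted p-values of 0.342, 0.347 and 0.334.

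The 5 small membrane subunits (Atp5k, Atp5j2, Atp5l, Atp5md and Atp5mpl), several of which are known for holding synthase dimers together at the cristae edges, had a median log2 fold change of 0.42. In each of them both CCCP libraries lay above both untreated ones (24% of all genes tested). Their median was 0.19 with the length trend over all genes removed, and 0.23 both without untreated 1 and without CCCP 2. The e subunit gene Atp5k had 44.3 and 45.0 untreated and 56.6 and 63.5 with CCCP. It was the subunit gene whose untreated libraries lay closest together, and its edgeR adjusted p of 0.242 was the smallest of the 17 (log2 fold change 0.43, SE 0.120). The 4 peripheral stalk genes had a median of 0.30, or 0.53 without untreated 2. In Atp5j and Atp5pb the groups did not overlap, and in Atp5h and Atp5o untreated 2 lay above CCCP 1. Of the exon bases of Atp5j, 19.7% are shared with the neighbouring gene Gabpa, which makes its count less certain.

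The pattern over libraries was shared by nearly all subunits. Of the 17, 16 had untreated 1 as the lowest and CCCP 2 as the highest library, an order found in 17.3% of all genes tested. The median level relative to each gene's mean over the 4 libraries was -0.34 and -0.01 on the log2 scale in untreated 1 and 2, and 0.09 and 0.28 in CCCP 1 and 2. The median step from untreated 1 to untreated 2 was 0.33 and was positive in 17 of 17 subunits, while the step from untreated 2 was 0.11 to CCCP 1, positive in 13, and 0.25 to CCCP 2, positive in 17. From untreated 1 the steps were 0.42 to CCCP 1 and 0.61 to CCCP 2, each positive in 17. In 7 of the 17 the gap between the untreated libraries was larger than the log2 fold change. Without untreated 1 the median log2 fold change of the group was 0.21, and without untreated 2 it was 0.55. All 17 values stayed positive in both cases.

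**Figure D2:**
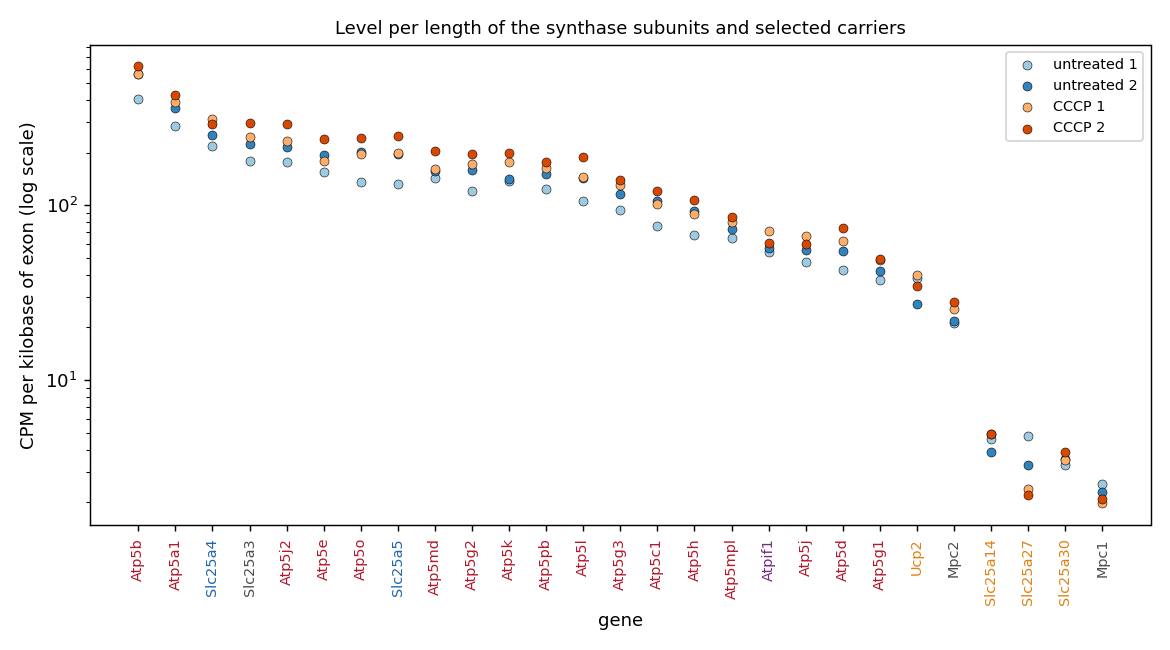
Level per length (CPM per kilobase of exon, log axis) of the synthase subunits, the inhibitor, and those adenine nucleotide, phosphate, uncoupling and pyruvate carriers that passed the filter on low counts; each point is 1 library. Atp5b and Atp5a1 stand highest, Ucp2 is near the lowest synthase gene, Atp5g1, and Mpc1 stands lowest of the genes plotted.

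Per kilobase of exon, Atp5b was the most abundant of the transcripts plotted in every library, at a CPM per kilobase of 406 to 621, followed by Atp5a1 at 284 to 424. The lowest synthase subunit was Atp5g1 at 37.2 to 49.5. The ratio of Atp5a1 to Atp5b per kilobase was 0.70 and 0.641 untreated and 0.685 and 0.683 with CCCP, and that of Atp5c1 to Atp5b 0.187 and 0.188 against 0.18 and 0.195. Both ratios overlapped between the groups.

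Atpif1, the inhibitor of the reverse reaction, had a CPM of 82.0 and 87.0 untreated and 108 and 93.1 with CCCP. The groups did not overlap, and here CCCP 1 was the higher treated library. The log2 fold change was 0.25 (SE 0.126, edgeR adjusted p = 0.402). Relative to Atp5b per kilobase, Atpif1 was at 0.132 and 0.102 untreated and 0.126 and 0.0982 with CCCP, so the ratio was higher in replicate 1 of each group.

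Of the 3 adenine nucleotide carrier genes, 2 were expressed. Slc25a4, the form known from heart and muscle, had a CPM of 289.9 and 334 untreated and 417 and 387 with CCCP. Slc25a5, the form of proliferating cells, had 171 and 255 untreated and 258 and 322 with CCCP. Neither gene overlapped between the groups, although Slc25a5 in untreated 2 and CCCP 1 nearly met. The log2 fold changes were 0.37 for Slc25a4 (SE 0.136, edgeR adjusted p = 0.312) and 0.44 for Slc25a5 (SE 0.219, adjusted p = 0.402). The median of the pair, 0.40, was 0.24 without untreated 1 and 0.65 without untreated 2. Slc25a31, known from the testis, had 4 and 2 counts untreated and 10 and 0 with CCCP and was not tested. Germ line markers were also low, with a summed CPM of 0.937 to 2.90 over 4 genes.

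Slc25a4 made up 62.2% and 56.0% of the carrier transcripts per kilobase in the untreated libraries and 61.1% and 53.9% with CCCP. The share was thus higher in replicate 1 of each group, and it overlapped between the groups. By raw counts the 4 shares were 62.8%, 56.7%, 61.8% and 54.6%. Their exact (Clopper-Pearson) 95% binomial intervals were 62.2% to 63.5%, 56.0% to 57.3%, 61.3% to 62.3% and 54.0% to 55.2%. These intervals address counting error only and treat every counted read as independent. Counting ran without an option for read pairs, so mates may be counted separately and the intervals may be too narrow. The replicates of a group differed by more than these intervals. The difference of the group means was -1.6 percentage points per kilobase, and it turned positive without untreated 1 (1.5 points) and without CCCP 2 (2.0 points). Among the c subunit genes Atp5g2 had the highest share per kilobase in every library, at 47.9% and 50.1% untreated and 48.8% and 51.1% with CCCP. Atp5g3 followed with 36% to 37.4% and Atp5g1 with 12.9% to 14.7%. By raw counts the order differed: Atp5g3 had the highest share in every library, at 57.2% to 58.4%, and Atp5g2 had 28.4% to 30.8%.

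**Figure D3:**
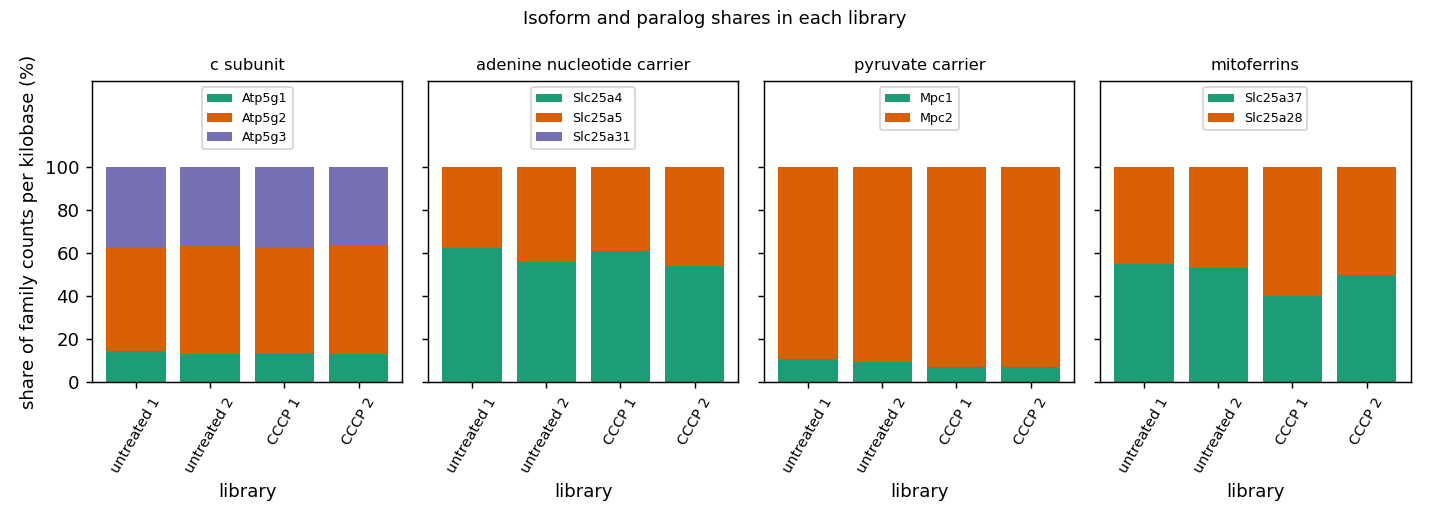
Share of each gene in its family in each library, in percent of counts per kilobase of exon, for the c subunit, the adenine nucleotide carrier, the pyruvate carrier and the mitoferrins. The Slc25a4 share is 62.2% and 61.1% in replicate 1 and 56.0% and 53.9% in replicate 2, while the Mpc1 share is 10.8% and 9.55% untreated and 7.15% and 6.98% with CCCP.

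The phosphate carrier gene Slc25a3 had a CPM of 308 and 387 untreated and 421 and 509.6 with CCCP. The groups did not overlap, and the order of the libraries was that of the synthase subunits. Its log2 fold change was 0.42 (SE 0.172, edgeR adjusted p = 0.342). The calcium-dependent ATP-Mg/phosphate carriers Slc25a23, Slc25a24 and Slc25a25, which adjust the matrix nucleotide pool, had log2 fold changes of 0.04, -0.02 and 0.22, and their groups overlapped.

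Of the 6 uncoupling genes, Ucp2, which is known from blood and immune cells, was the most abundant, with a CPM of 65.9 and 47.1 untreated and 68.5 and 59.2 with CCCP. The groups overlapped, and replicate 1 was the higher library in each. The log2 fold change was 0.18 (SE 0.186, edgeR adjusted p = 0.678), and without untreated 2 it was -0.01. The summed CPM of 5 macrophage markers was 167 and 115 untreated and 176 and 177 with CCCP, lowest in untreated 2 as Ucp2 was, and their part in the Ucp2 level was not tested. Ucp2 made up 99.7% to 99.9% of the Ucp1 to Ucp3 transcripts per kilobase. Ucp1, the uncoupler of brown fat, had 7 and 2 counts untreated and 0 in both CCCP libraries. The detection floor of 3 counts was a CPM of 0.0618 and 0.0827 in those libraries, and it treats counted reads as independent. Ucp3, known from muscle, had 6 and 0 counts untreated and 4 and 4 with CCCP. Neither was tested. Of 5 brown fat markers, with a summed CPM of 23.5 to 28.3, Prdm16 (17.9 to 21.8) and Ppargc1a (3.94 to 6.83) made up nearly all. Cidea (0.0799 to 0.288) and Cox7a1 (0.214 to 0.744) were low, and Elovl3 was at 0 in 3 libraries.

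The brain-enriched uncoupling relative Slc25a27 had a CPM of 58.5 and 40.4 untreated and 29.3 and 27 with CCCP. Both treated libraries lay below both untreated ones, and the untreated libraries stood further apart than the treated ones. The log2 fold change was -0.81 (SE 0.196), with an adjusted p of 0.209 in edgeR and 0.0214 in DESeq2. Without untreated 1 it was -0.51. Its summed exon length of 12274 bases places it among the longest genes, and the longest 10% of genes tested had a median log2 fold change of -0.36. With the length trend over all genes removed, its value was -0.46. Among neural markers, Elavl4 was also lower in both CCCP libraries (log2 fold change -0.40). Tubb3 and Sox10 were higher in both, and Stmn2 overlapped. The part of neural cells in the Slc25a27 level was not tested. The other relatives, Slc25a14 and Slc25a30, had 9.03 and 7.57 against 9.66 and 9.68, and 13.8 and 14.9 against 14.8 and 16.5. Slc25a14 did not overlap between the groups (log2 fold change 0.22, edgeR adjusted p = 0.639), and Slc25a30 did (0.12, adjusted p = 0.758).

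The 43 other carriers, 40 of them tested, had a median log2 fold change of 0.13 and a range from -0.77 to 0.67. Positive values were found in 26. In 18 the CCCP libraries lay above both untreated ones (24% of all genes tested), in 7 below (24.8%), and in 15 the groups overlapped. At an unadjusted edgeR p under 0.05, 7 were higher (5.45% of all genes) and 1 lower (9.16%).

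**Figure D4:**
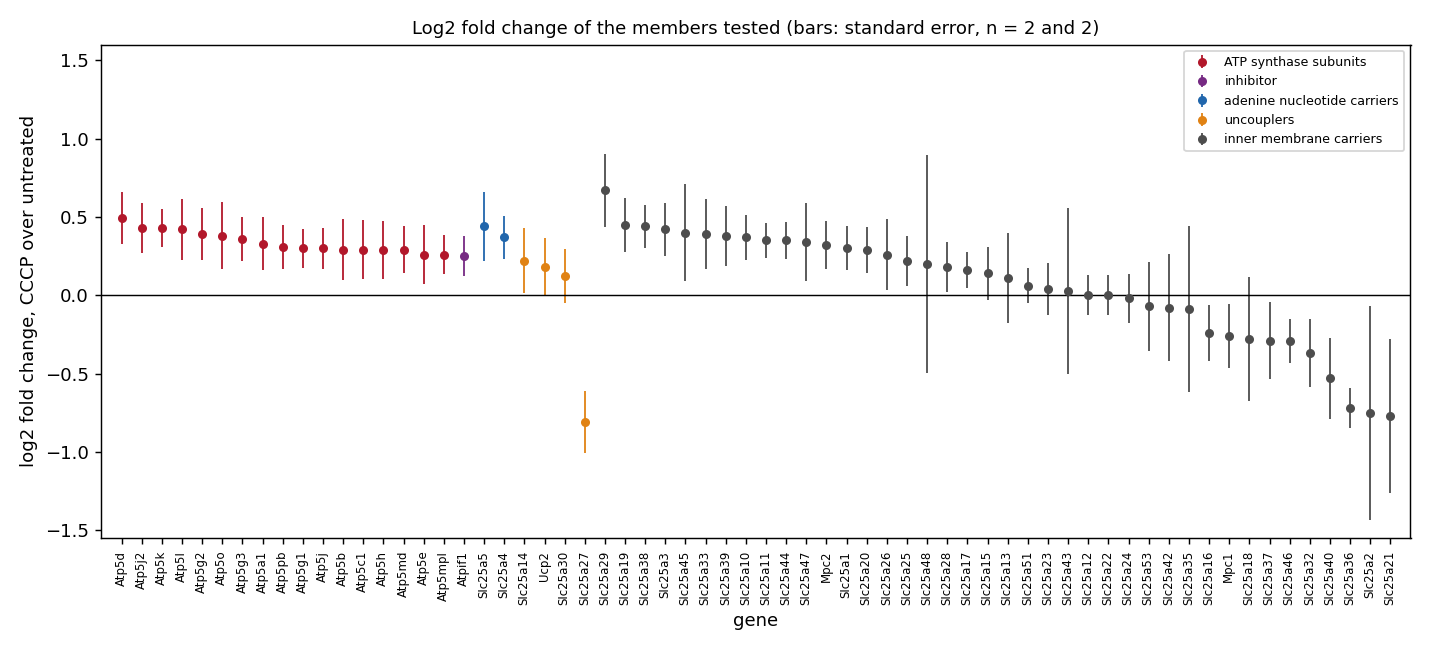
Log2 fold change of CCCP over untreated for the 64 genes tested, ordered within each group; points are edgeR estimates and bars their standard errors (2 libraries against 2). The synthase subunits lie between 0.26 and 0.49, and the carriers run from 0.67 for Slc25a29 to -0.77 for Slc25a21.

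The carrier lowest in its unadjusted p was Slc25a36, which brings pyrimidine nucleotides into the matrix and lies on mm10 chromosome 9 from 97075281 to 97111041. Its CPM was 125 and 113 untreated and 67.8 and 76.1 with CCCP, so the groups were far apart relative to the spread within them. The log2 fold change was -0.72 (SE 0.125), with an adjusted p of 0.149 in edgeR and 0.00163 in DESeq2. With the length trend removed the value was -0.54, and with the trend of GC content removed -0.43. Slc25a33, which also carries pyrimidine nucleotides, stood on the other side, with 10.9 and 15.3 untreated and 15.9 and 18.6 with CCCP (log2 fold change 0.39, adjusted p = 0.454). The difference between the genes of this pair was not tested.

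Among the amino acid carriers, Slc25a29, a carrier of basic amino acids, had the highest log2 fold change of the 64 genes. Its CPM was 4.02 and 4.14 untreated and 6.68 and 6.29 with CCCP (log2 fold change 0.67, SE 0.234, edgeR adjusted p = 0.299). The glycine carrier Slc25a38, which serves haem synthesis, had 24.1 and 22.2 untreated and 31.2 and 31.5 with CCCP (0.44, SE 0.136, adjusted p = 0.271). Slc25a44, a carrier of branched-chain amino acids, had 34.7 and 36.1 untreated and 45.4 and 45.0 with CCCP (0.35, SE 0.117, adjusted p = 0.280). In these 3 genes the replicates of a group lay close together, and both CCCP libraries lay above both untreated ones (24% of all genes tested). In the other 6 of the 9 amino acid carriers the groups overlapped, and 0 lay below (24.8% of all genes). The aspartate-glutamate carrier Slc25a12 had 31.4 and 30.7 untreated and 30.6 and 31.7 with CCCP, and the glutamate carrier Slc25a22 had 38.5 and 34.8 against 37.3 and 36.1.

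The 4 carriers of di- and tricarboxylates had a median of 0.32, which was 0.20 with the length trend removed and 0.16 with the GC trend removed. Slc25a11, the oxoglutarate carrier of the malate-aspartate shuttle, had a CPM of 58.2 and 59.4 untreated and 77.6 and 71.9 with CCCP (log2 fold change 0.35, SE 0.112, edgeR adjusted p = 0.277), although 11.4% of its exon bases are shared with Rnf167. The citrate carrier Slc25a1 (0.30) and the dicarboxylate carrier Slc25a10 (0.37) also did not overlap between groups. The oxodicarboxylate carrier Slc25a21 was low, with 1.04 and 2.25 untreated and 0.948 and 0.965 with CCCP.

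Iron enters the matrix through the mitoferrins. Slc25a37, the form of red cell precursors, had a CPM of 59.8 and 55.9 untreated and 35.0 and 59.5 with CCCP. CCCP 1 alone was low, and without it the log2 fold change of -0.29 became 0.05. Red cell markers did not single out that library in the same way, with a summed CPM of 2367 and 2948 untreated and 2638 and 4441 with CCCP. Slc25a28, the form of other tissues, had 19.2 and 19.5 untreated and 20.5 and 23.4 with CCCP (0.18, adjusted p = 0.616). Of the glutathione carriers, Slc25a39 had 67.3 and 98.8 untreated and 109.7 and 106 with CCCP (0.38, adjusted p = 0.412), while Slc25a40 had 11.8 and 8.24 untreated and 7.58 and 6.34 with CCCP (-0.53, adjusted p = 0.399). The genes of this pair lay on opposite sides in all 4 comparisons between a treated and an untreated library. Their GC content differs, at 59.7% for Slc25a39 and 39.4% for Slc25a40. With the GC trend removed their values were 0.20 and -0.18, and without untreated 1 they were 0.13 and -0.23.

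The mitochondrial pyruvate carrier is built from an Mpc1 and an Mpc2 subunit. Mpc1 had a CPM of 9.61 and 8.61 untreated and 7.40 and 7.86 with CCCP, and Mpc2 had 17.1 and 17.5 untreated and 20.6 and 22.4 with CCCP. The groups did not overlap in either gene, and they went opposite ways, with log2 fold changes of -0.26 (SE 0.206, edgeR adjusted p = 0.580) and 0.32 (SE 0.154, adjusted p = 0.396). Per kilobase, the ratio of Mpc2 to Mpc1 was 8.29 and 9.47 untreated and 13 and 13.3 with CCCP. The Mpc1 share per kilobase was 10.8% and 9.55% untreated and 7.15% and 6.98% with CCCP. By raw counts, which are not scaled to exon length, that share was 36% and 33% untreated and 26.5% and 26% with CCCP. The ratio did not overlap between the groups. The genes also differ in exon length, with 3764 bases for Mpc1 and 806 for Mpc2, and with the length trend removed Mpc2 was at 0.10 and Mpc1 at -0.26.

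Other carriers lay below in both CCCP libraries. The folate carrier Slc25a32 had a CPM of 17.4 and 14.1 untreated and 10.6 and 13.8 with CCCP (log2 fold change -0.37, edgeR adjusted p = 0.467). The outer membrane protein Slc25a46, which takes part in mitochondrial shape, had 54.9 and 57.6 untreated and 41.3 and 50.6 with CCCP (-0.29, adjusted p = 0.391). With the GC trend removed, the log2 fold changes were -0.11 for Slc25a32 and -0.01 for Slc25a46. The NAD carrier Slc25a51 was nearly level, at 112 and 112 untreated and 113 and 121 with CCCP. Slc25a47, a carrier known from liver, was not low in the CCCP libraries in which the hepatic markers were: it had 5.25 and 4.33 untreated and 6.53 and 5.6 with CCCP (0.34, adjusted p = 0.548). The carriers Slc25a34, Slc25a41 and Slc25a54 had at most 14 counts in a library and were not tested.

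**Figure D5:**
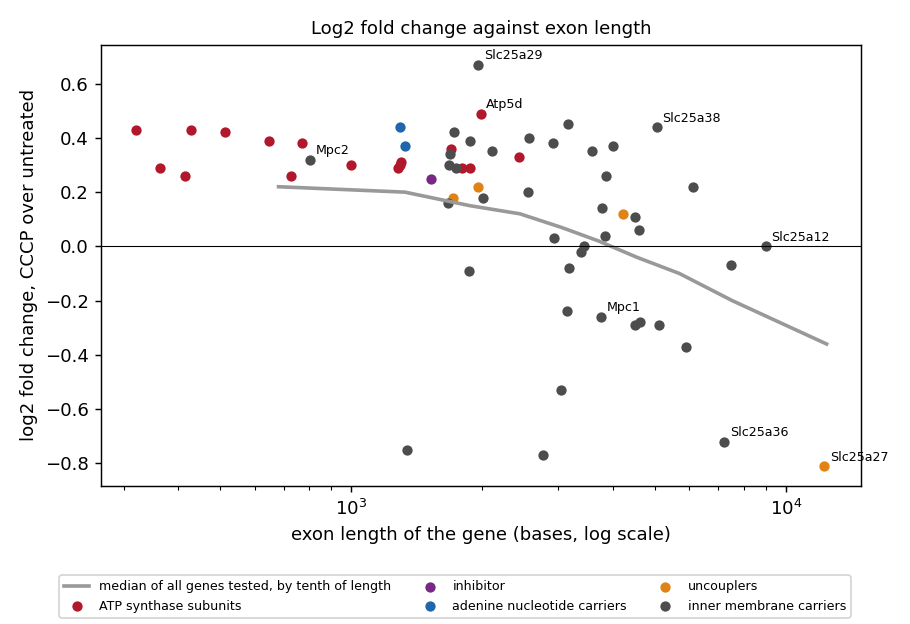
Log2 fold change against summed exon length (log axis) for the 64 genes tested; the grey line joins the medians of all genes tested in 10 classes of length. The line runs from 0.22 in the shortest class to -0.36 in the longest, and all 17 synthase subunits lie above its highest median.

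The synthase subunits and the carriers also differ in length: the median summed exon length was 998 bases for the subunits, 3164 for the carriers and 3357 for all genes tested. Over all genes tested the median log2 fold change went from 0.22 in the shortest of 10 length classes to -0.36 in the longest. Spearman's rho of log2 fold change and length was -0.36 across all 19837 genes, -0.52 across the 64 genes here, -0.32 across the 40 carriers and 0.02 across the 17 subunits. These correlations run across genes measured in the same 4 libraries, so the points are not independent replicates. When the length trend was removed, the median of the subunits was 0.17 with 17 of 17 positive, that of the carriers 0.11 and that of all genes 0.02. For GC content rho was 0.37 across the 18202 genes with a value and 0.60 across the carriers, and with the GC trend removed the medians were 0.32 for the subunits and 0.14 for the carriers. The median of the subunits exceeded that of the carriers by 0.18, and by 0.06 with the length trend removed. The difference of medians also depended on single libraries: it was 0.07 without untreated 1, 0.36 without untreated 2, 0.31 without CCCP 1 and 0.13 without CCCP 2. The shortest 10% of genes followed the order of the libraries seen in the subunits, with a median deviation of -0.20 and 0.04 in untreated 1 and 2 and 0.04 and 0.17 in CCCP 1 and 2. The part of this length trend in the synthase result was not tested further.

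Other genes of the pathway, 30 tested of 32 listed, showed values like those of the subunits, with a median log2 fold change of 0.26. Positive values were found in 29 (49.2% of all genes), and both CCCP libraries lay above in 19 (24%) and below in 1 (24.8%). None was called by edgeR (0% of all genes) or DESeq2 (0.329% higher and 2.99% lower). Of the 30, 4 were higher at an unadjusted edgeR p under 0.05 (5.45% of all genes) and none lower (9.16%). The 9 genes that import carriers into the inner membrane had a median of 0.27 and were all positive, among them Timm13, a small chaperone of the intermembrane space, with a CPM of 36.7 and 41 untreated and 48.1 and 58.9 with CCCP. The 5 assembly factors of the synthase had a median of 0.21. The mitochondrially encoded subunit ATP6 had 6.93 and 7.91 untreated and 9.83 and 10.8 with CCCP, in libraries prepared by poly(A) selection. The other such subunit, ATP8, overlapped between the groups, with 1.02 and 1.44 untreated and 1.59 and 1.13 with CCCP (log2 fold change 0.15). The outer membrane channel Vdac1, through which the exchanged nucleotides pass, had a log2 fold change of 0.30. The gene below was Opa1, which keeps cristae closed, with 119 and 118 untreated and 91.9 and 105 with CCCP (log2 fold change -0.26). Its exon length is 7530 bases, and its value was -0.07 with the length trend removed and -0.09 with the GC trend removed.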

How the data were processed

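RNA of 2 untreated and 2 CCCP-treated explant libraries was measured. The authors deposited raw counts of reads per gene. Per the file headers, they were made with featureCounts 2.0.3 over exons of the mm10 NCBI RefSeq annotation, without options for strand, read pairs, multi-mapping or overlapping reads. FastQC, HISAT2, SAMtools and Subread are named in the submitters' processing notes, and trimming is not given in the sources used here. The labels describe a directional kit, so counts where genes overlap are uncertain: 22 of the 70 genes have a span that overlaps another gene, 17 of them on the other strand, and 13 share exon bases (0.469% to 19.7% of their length). Shared reads of paralogs and of 9 excluded pseudogene rows were not counted by those settings. Exon length is also in the authors' deposited files, but it adds alternate contigs (8 of the genes), so length on the primary chromosome was used here.

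Counts were tested with edgeR 4.0.16 (glmQLFit, glmQLFTest, limma 3.58.1, R 4.3.3), with TMM scaling, filterByExpr (minimum count 10, minimum total 15), group as the only term, two-sided, and Benjamini-Hochberg adjustment over all 19837 genes tested. The standard error is the size of the log2 fold change divided by the square root of F. Trends of length and GC were removed by loess (span 0.3) as offsets, GC being known for 77.0% of all genes and for all 70. An exact permutation test of 2 against 2 cannot go below p = 0.333 and was not used. A detection floor of 3 counts equals a CPM of 0.0599 to 0.0827. The scripts' fits were tested on simulated data. DESeq2 1.42.0, other scalings and filters, a replicate block and leaving out each library were the alternatives.

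Members and lists were chosen with earlier results of these data known. Named genes were the F1 and c subunits, Atpif1, the phosphate, adenine nucleotide, uncoupling, pyruvate and mitoferrin carriers, and the genes smallest in p in each direction; others are named as members of a role, and were chosen after their values were seen. Replicate numbers come from the titles, and no label ties them to a litter or day.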

Additional observations from a re-analysis of the deposited data

How the results depend on the processing

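The 17 synthase subunits had a positive log2 fold change under all alternatives run, with medians from 0.17 with the length trend removed to 0.55 without untreated replicate 2. Leaving out each library in turn gave medians of 0.21 to 0.55 for the subunits, 0.11 to 0.19 for the carriers and 0.24 to 0.65 for the adenine nucleotide carriers, a difference between subunits and carriers of 0.07 to 0.36, and values of -0.01 to 0.45 for Ucp2 and -0.72 to 0.05 for Slc25a37. The highest of these medians and the lowest Ucp2 value came without untreated replicate 2, and Slc25a37 was at 0.05 without CCCP replicate 1. With scaling by total library size, which put the median of all genes at -0.07, the carriers' median was 0.07. Against 0 genes called by edgeR, 594 were called with DESeq2 (2 of the 64 genes here: Slc25a27 and Slc25a36) and 1107 without the filter on low counts (3: also Atp5d). Leaving out 1 library called 10 to 46 genes, none of them among these members. The other scalings, the stricter filter, the trends of length or GC alone and leaving out mitochondrial and globin genes called none.

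The replicate block, which adds the replicate number as a term, called 2118 genes. Among the 64 it called 10, of which 8 were higher (3.8% of all genes: Atp5d, Atp5g2, Atp5j2, Atp5k, Atp5l, Atp5o, Slc25a3, Slc25a5) and 2 lower (6.88%: Slc25a27, Slc25a36). Together with removal of the length trend the block called 1561 of the 19837 genes tested, 753 higher and 808 lower. Of the 64 it then called 4, 2 higher and 2 lower. With removal of the GC trend it called 990 of the 19837, 320 higher and 670 lower, and 8 of the 64, 6 higher and 2 lower. Deviations of same-numbered libraries correlated at 0.377, but the numbers come from the titles alone and were not taken as a pairing. The main limits are 2 libraries a group, a biological coefficient of variation of 21.9%, and the distance of untreated replicate 1 from the others.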

Other observations

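Among the 9 pseudogene rows left out, Atp5pb-ps had 228 and 207 counts untreated and 284 and 222 with CCCP, and Atp5k-ps2 had 111 and 77 against 153 and 110. The other 7 had at most 29 counts in a library.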
